A study of Homo sapiens with 4 samples.

Results

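Genes whose transcripts were present in one genotype and nearly missing from the other were examined in NUDUL1 cells, a human line of diffuse large B cell lymphoma of the germinal center type. A gene was taken as off when both libraries labelled control had a log2 normalised read value of at least 4.5 and both libraries labelled GNA13-deficient had a value of at most 1.7. A gene was taken as on when the same held with the genotypes exchanged. On this scale 1.7 is about 3 reads and 4.5 is about 23 reads. Of the 25066 genes in the deposited values, 51 were off, a share of 0.203%, and 0 were on, a share of 0%. The members were chosen by these values, so their levels are given as a description and no test was made of them.

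The cells came from a single-cell clone with doxycycline-inducible Cas9 that had been transduced with the receptor Tbxa2r, and they expressed either a control sgRNA or a GNA13 sgRNA, with 1 sgRNA per genotype. All 4 libraries, 2 per genotype, were made from cells treated for 24 h with 10 nM U46619, a stable analog of thromboxane A2 that activates Tbxa2r, and no untreated cells were included. The labels call the treatments duplicates and do not say whether these were separate cultures, so p values may measure technical spread only. Since 1 clone and 1 guide stand for each genotype, differences that belong to the genotype and differences that belong to the cell population used cannot be told apart.

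Gα13, the product of GNA13, is the alpha subunit of a heterotrimeric G protein. It relays signals from receptors such as the thromboxane receptor to RhoGEF proteins and the small GTPase RhoA, and in germinal center B cells it restrains migration and growth. A gene can be near silent in a cell because its promoter is not used, and a CpG-rich promoter is typical of genes used in most cells, whereas CpG-poor promoters are common among genes used in few cell types.

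The targeted gene was measured in every library first. GNA13 was at 12.46 and 12.45 on the log2 scale in control and at 13.10 and 13.11 in GNA13-deficient libraries. Its mRNA was higher by 0.65 (standard error 0.05, limma adjusted p = 0.00214) under the GNA13 guide. A guide that changes the coding sequence need not lower the mRNA, and a pseudogene could share its reads, so this measurement does not check the labels and every direction below rests on them.

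Between 29209544 and 31537955 reads were mapped per library. Low values correspond to whole reads, and each value below is given with the reads behind it. A listed value of 0 means 0 reads in 3 of the libraries, and in control replicate 2 it covers 0 or 1 read. The B cell identity of the cells was checked by 8 markers, of which MS4A1, which encodes CD20, had 11633 and 12673 reads in control and 7743 and 7846 in GNA13-deficient libraries. In these bulk libraries, fewer cells that express a gene and less RNA per cell cannot be told apart.

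The 51 off genes lay low in the range of expressed genes. Their median log2 value was 5.20 and 5.26 in control replicates 1 and 2, or 36 and 39 reads, and 0.04 and 0.10 in GNA13-deficient replicates 1 and 2, or 1 read in each. Together they held 2131 and 2220 reads in control and 71 and 74 reads in GNA13-deficient libraries. The gap between the lower control library and the higher GNA13-deficient library ranged from 3.14 to 5.91 on the log2 scale with a median of 4.19. The rule itself sets a wide gap. The control libraries differed by 0.89 at most, with a median of 0.23. Off did not mean without reads. Reads remained in both GNA13-deficient libraries for 29 members and in only one of them for 19, and 3 members had 0 reads in both. For the 48 members with any read, the ratio of control to GNA13-deficient reads ran from 9.37 to 95.2 with a median of 24.8. Ratios here and below were scaled by the constant that links reads to deposited values in each library.

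**Figure D1:**
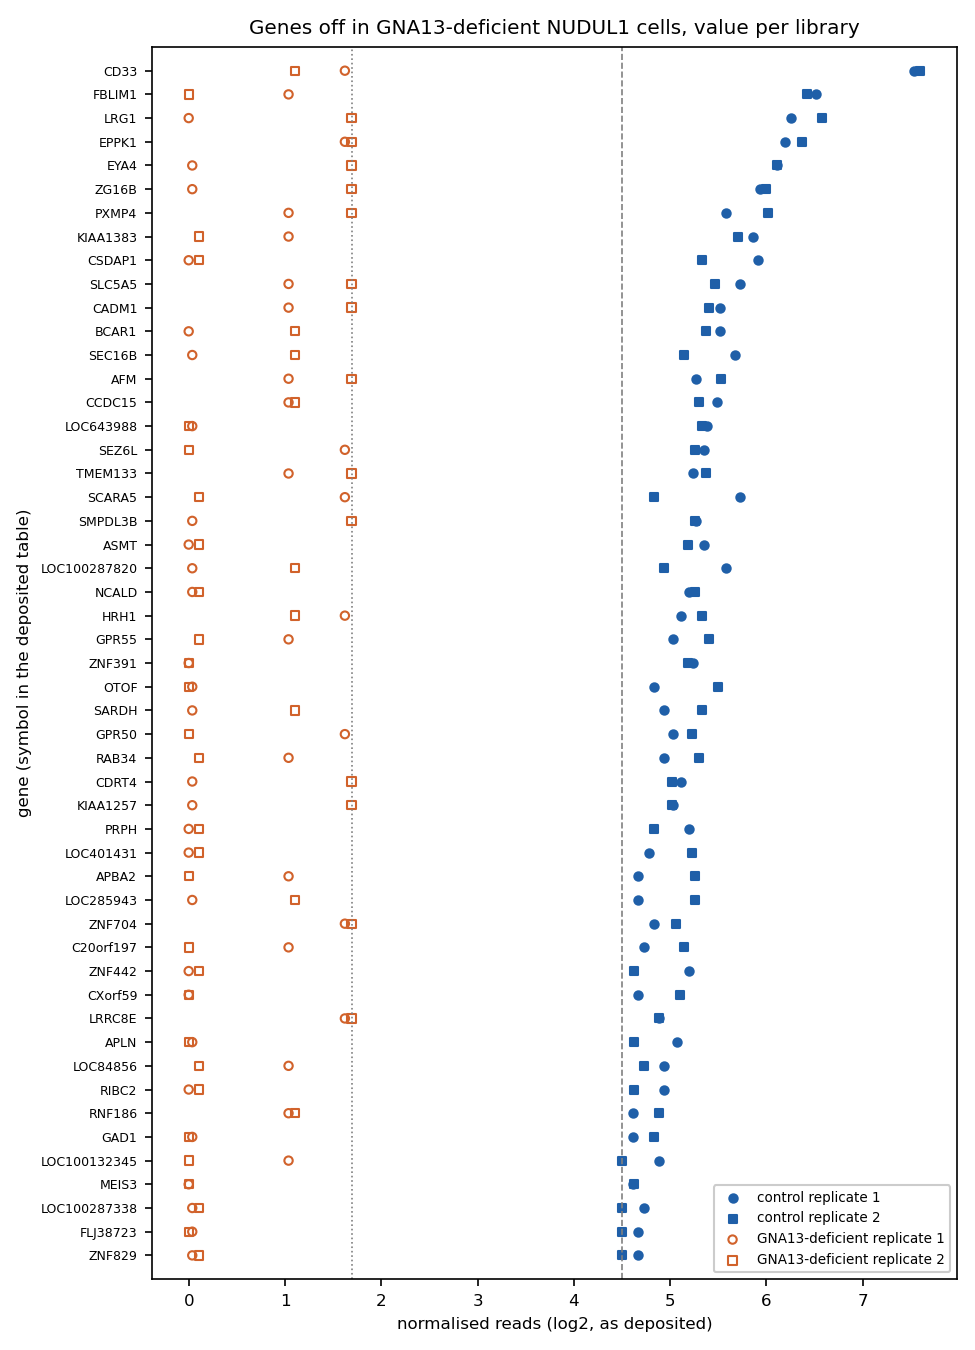
Log2 normalised reads (x axis) of the 51 off genes (y axis, ordered by control mean) in each of the 4 libraries, with filled marks for control and open marks for GNA13-deficient. Dashed and dotted lines mark 4.5 and 1.7. Control marks run from 4.5 to 7.60 and most lie below 6, while GNA13-deficient marks sit on the steps of 0, 1, 2 and 3 reads.

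Genes high enough to qualify were about as many in either genotype. In control, 11840 genes were at or above 4.5 in both libraries, and 0.431% of them were off. In GNA13-deficient cells 11405 genes were at or above 4.5, and none was on. Among genes with a mean between 4.5 and 6, 46 of 1085 in control were off, or 4.24%, whereas 0 of 1020 in GNA13-deficient cells were on. At a gap of at least 3 on the log2 scale, 293 genes were higher in control and 5 were higher in GNA13-deficient cells. When the rule was applied to libraries of replicate 1 alone, 94 genes were off and 0 on, and with replicate 2 alone 109 were off and 5 on. The 51 shared genes were 54.3% of the former and 46.8% of the latter. Without GNA13-deficient replicate 1 there were 90 off genes and without GNA13-deficient replicate 2 there were 78. Between libraries of the same genotype, the same levels selected 1 to 3 genes. The count also moved with the scaling, to 33 after centring each library on its median and to 22 after quantile normalization, with 0 on genes under either. With 3 reads at a log2 value of 1.69 in GNA13-deficient replicate 2, small shifts carry members across the 1.7 line.

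**Figure D2:**
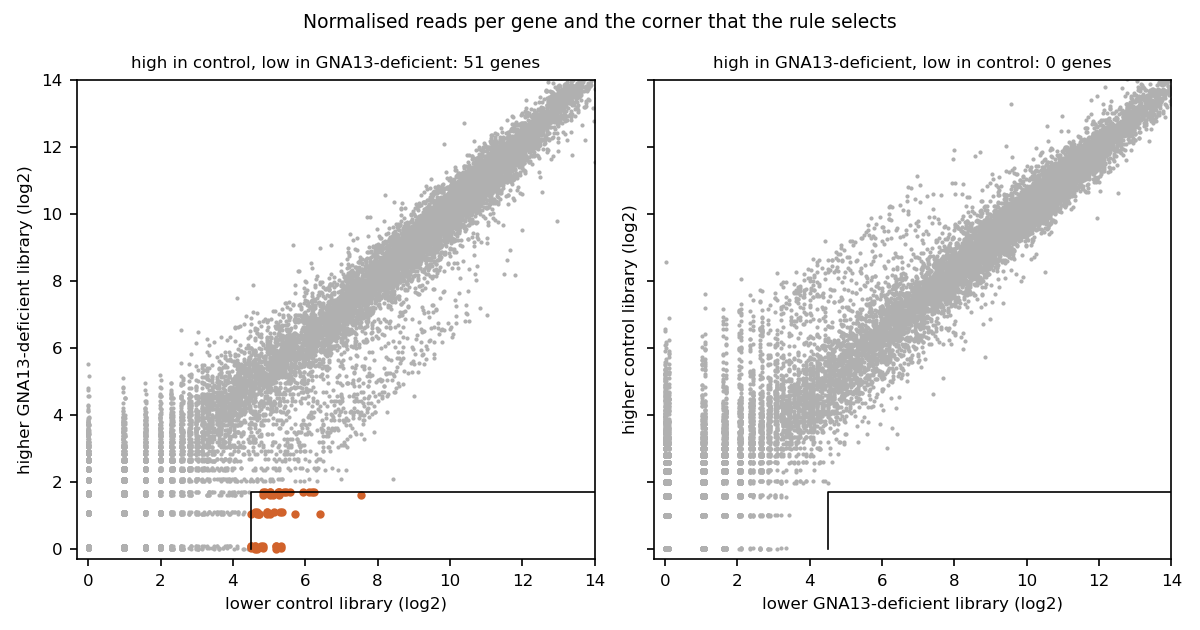
Each point is a gene, with the lower of one genotype's libraries on the x axis and the higher of the other genotype's libraries on the y axis, both in log2 normalised reads (axes end at 14). The box at lower right is the rule: 51 genes lie in it for control over GNA13-deficient (left) and 0 for the opposite order (right), where the nearest genes stop short of 4.5 or stay above 1.7.

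The members just inside the lines were FLJ38723, LOC100132345 and LOC100287338, each with 23 reads in control replicate 2, and EPPK1, LRRC8E and ZNF704, each with 3 reads in both GNA13-deficient libraries. Just outside were CXorf30 with 22 and 33 reads in control and 0 in both others, ENPP3 and SLC16A5 with 22 reads in control replicate 1, and SLC9A3R2, CST3 and ACPP with 4 reads in GNA13-deficient replicate 1. The widest gap of any gene, 6.32, belonged to one outside the rule. IGSF10, a member of the immunoglobulin superfamily, had 338 and 385 reads in control against 1 and 4 in GNA13-deficient libraries, and the 4 reads kept it out.

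Genes that came nearest to being on were histones and lowly expressed genes. The histone gene HIST1H3C had 3 and 4 reads in control and 22 and 23 in GNA13-deficient libraries, and HIST1H4I had 4 and 3 against 20 and 20. MAP7D2, whose product binds microtubules, had 4 and 4 reads in control and 28 and 20 in GNA13-deficient libraries. The widest gaps in this direction started from levels that were not silent, or ended below 4.5. CD1C, which presents lipid antigens to T cells, had 52 and 51 reads in control and 449 and 504 in GNA13-deficient libraries. The ETS factor gene ETV4 had 8 and 11 against 83 and 83. NFIB, a transcription factor gene with 1 and 0 reads in control, reached only 9 and 12. These genes were named by their values, which are a description.

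CD33 was the highest off gene. It encodes an inhibitory lectin receptor for sialic acids, best known on myeloid cells, and spans chr19:51728320-51747115 on the plus strand of GRCh37. CD33 had log2 values of 7.53 and 7.60 in control and 1.62 and 1.105 in GNA13-deficient libraries, from 182 and 197 reads against 3 and 2. Scaled by these library constants, the ratio was 72.2, with a 95% exact counting interval from 30.7 to 224. This interval, like the others here, covers counting error only. Its level per length in control was 4.27 reads per kilobase of transcript after scaling to the library total (RPKM), the highest of the 45 members with an annotated transcript, whose median was 0.364. Of those, 29 lay under 0.5.

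CD33 was the one leukocyte lectin or immunoglobulin superfamily receptor in the off class. Its relative SIGLEC9 had 13 and 17 reads in control and 2 and 0 in GNA13-deficient libraries, lower by 3.38 on the log2 scale (standard error 0.50, limma adjusted p = 0.00948). CD22, the sialic acid-binding receptor of B cells, had log2 values of 10.24 and 10.27 against 10.21 and 10.27, and SIGLEC10 had 8.23 and 8.19 against 8.48 and 8.46. Neither passed the test (limma adjusted p = 0.862 and 0.0958).

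Other receptors, channels and adhesion molecules were also off. Of G protein-coupled receptors, 3 were members, or 5.88% of the class, against 0.574% of genes at or above 4.5 in control. Those comparison genes reach far higher levels than the members, so these shares are not matched for level. The difference was not tested. HRH1, the histamine H1 receptor, had 34 and 41 reads in control and 3 and 2 in GNA13-deficient libraries. GPR55, a receptor for lysophosphatidylinositol that can couple to Gα13, had 32 and 43 against 2 and 1. GPR50, an orphan relative of the melatonin receptors, had 32 and 38 against 3 and 0. Of their relatives, CNR2, the cannabinoid receptor of immune cells, fell by 1.82 (standard error 0.31, limma adjusted p = 0.0137), with 93 and 65 reads in control and 22 and 20 in GNA13-deficient libraries. CNR1 fell by 0.41 (standard error 0.07, limma adjusted p = 0.0132). GPR18, another relative of GPR55, had 878 and 909 reads in control and 938 and 947 in the others and did not pass the test, and HRH3 had 2 and 3 against 0 and 0. The listed melatonin receptors MTNR1A and MTNR1B and the histamine receptors HRH2 and HRH4 were listed at 0 in every library.

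Among the remaining surface proteins, SLC5A5, the sodium and iodide symporter of the thyroid, had 52 and 45 reads in control and 2 and 3 in GNA13-deficient libraries. CADM1, a cell adhesion molecule of the immunoglobulin superfamily, had 45 and 43 against 2 and 3. SEZ6L, a membrane protein best known in neurons, had 40 and 39 against 3 and 0. All of these sat below 6 in control on the log2 scale. SCARA5, a scavenger receptor that takes up ferritin, had the widest split between control libraries, with 52 and 29 reads, and 3 and 1 reads in the others. LRRC8E, a subunit of the volume-regulated anion channel, had the smallest ratio of the class, 9.37 (95% exact counting interval 4.06 to 26.5), from 29 and 30 reads against 3 and 3. The other subunits of that channel were not near silent: LRRC8A, LRRC8B and LRRC8C did not pass the test, and LRRC8D fell by 0.28 (standard error 0.05, limma adjusted p = 0.0190).

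Several members encode proteins of the cytoskeleton or of cell adhesions. FBLIM1 encodes migfilin, which links filamin and kindlin at cell adhesions, and had 90 and 87 reads in control and 2 and 0 in GNA13-deficient libraries. The ratio was 84.3 (95% exact counting interval 22.99 to 701). EPPK1, which encodes the plakin epiplakin, had 72 and 84 reads in control and 3 and 3 in the others. BCAR1, which encodes the adhesion scaffold p130Cas, had 45 and 42 against 0 and 2. The intermediate filament gene PRPH had 36 and 29 against 0 and 1, and KIAA1383, now named MAP10, whose product binds microtubules, had 57 and 53 against 2 and 1. Several partners and relatives, by contrast, were well expressed in every library. Filamin A mRNA (FLNA) rose by 0.61 (standard error 0.10, limma adjusted p = 0.0113), and the kindlin of blood cells, FERMT3, had log2 values of 12.79 and 12.91 in control against 12.82 and 12.86. NEDD9, the family member related to BCAR1, fell by 0.32 (standard error 0.08, limma adjusted p = 0.0456), and vimentin (VIM), an intermediate filament gene like PRPH, rose by 0.44 (standard error 0.08, limma adjusted p = 0.0157).

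Secreted proteins made up another group. LRG1, a leucine-rich glycoprotein of plasma, had 75 and 97 reads in control and 0 and 3 in GNA13-deficient libraries. ZG16B, which encodes a secreted lectin-like protein, had 60 and 65 against 1 and 3. AFM, a vitamin E-binding relative of albumin made in liver, had 38 and 47 against 2 and 3. Other genes of the albumin family were at or near 0 throughout, with 3 and 2 reads of ALB in control and none of AFP. APLN, which encodes the peptide ligand apelin, had 33 and 25 reads in control and 1 and 0 in the others, and its receptor gene APLNR was listed at 0 in every library.

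Vesicle and membrane trafficking genes were SEC16B, of endoplasmic reticulum exit sites, with 50 and 36 reads against 1 and 2, the small GTPase gene RAB34 with 30 and 40 against 2 and 1, and OTOF, a ferlin needed for synaptic release in hair cells, with 28 and 46 against 1 and 0. PXMP4, a peroxisomal membrane protein gene, had 47 and 66 against 2 and 3. NCALD, a neuronal calcium sensor gene, had 36 and 39 against 1 and 1. A second ferlin gene also fell steeply. MYOF (myoferlin) had 226 and 270 reads in control and 16 and 4 in GNA13-deficient libraries, and fell by 4.88 (standard error 0.67, limma adjusted p = 0.00761). SEC16A, the broadly used relative of SEC16B, had log2 values of 12.53 and 12.77 against 12.88 and 12.67 and did not pass the test. APBA2, an adaptor for amyloid precursor protein, had 25 and 39 reads against 2 and 0.

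Enzymes in the class were GAD1, which makes the transmitter GABA, with 24 and 29 reads in control and 1 and 0 in GNA13-deficient libraries, and ASMT, which catalyses the last step of melatonin synthesis, with 40 and 37 against 0 and 1. SARDH, a mitochondrial sarcosine dehydrogenase, had 30 and 41 against 1 and 2. SMPDL3B, a membrane-anchored relative of acid sphingomyelinase, had 38 and 39 against 1 and 3, and the ubiquitin ligase gene RNF186 had 24 and 30 against 2 and 2. GAD1, ASMT, SARDH and RNF186 are best known from brain, pineal gland, liver and gut, in that order.

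Genes of transcription were EYA4, a developmental co-activator and phosphatase, MEIS3, a homeobox gene, and 4 zinc finger genes. EYA4 had 68 and 70 reads in control and 1 and 3 in GNA13-deficient libraries. MEIS3 had 24 and 25 reads in control and 0 in both others, at least 15.6-fold lower when 0 is set to 3 reads over the group. ZNF391 had 37 and 37 reads in control and 0 in both others, at least 23.5-fold lower on the same terms. ZNF442 had 36 and 25 against 0 and 1, ZNF704 had 28 and 34 against 3 and 3, and ZNF829 had 25 and 23 against 1 and 1. Zinc finger genes were 7.84% of the off class and 3.88% of the genes at or above 4.5 in control, shares that were neither matched for level nor tested. Of their relatives, MEIS2 rose by 0.64 (standard error 0.10, limma adjusted p = 0.0106), and EYA3 did not pass the test (limma adjusted p = 0.246).

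Noncoding and uncharacterized transcripts, as judged by symbol, were 12 of the 51 members, or 23.5%, against 12.6% of genes at or above 4.5 in control. These shares, too, were neither matched for level nor tested. By RefSeq, 42 members were protein coding, 4 were long noncoding RNAs, 1 was a pseudogene and 4 had no match. The long noncoding RNAs were LOC401431 (ATP6V0E2-AS1) with 27 and 38 reads against 0 and 1, LOC285943 (HOXA-AS2) with 25 and 39 against 1 and 2, LOC84856 (LINC00839) with 30 and 27 against 2 and 1, and C20orf197 (LINC02910) with 26 and 36 against 2 and 0. The sources used here do not say that counting used strand, so reads of an antisense RNA cannot be told apart from those of its partner. ATP6V0E2, on the opposite strand of LOC401431, fell by 0.61 (standard error 0.09, limma adjusted p = 0.00948) but kept 316 and 328 reads. HOXA3, which overlaps LOC285943, had 10 and 9 reads in control and 9 and 7 in the others.

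CSDAP1, now YBX3P1, is a pseudogene of CSDA, which encodes a cold shock domain protein that binds DNA and RNA. It had 59 and 41 reads in control and 0 and 1 in GNA13-deficient libraries. The parent gene moved the same way, with 2821 and 3273 reads in control against 243 and 274, and fell by 3.49 (standard error 0.11, limma adjusted p = 0.000661). The copies are nearly identical and counting could split reads between them, so the level of the pseudogene is uncertain. CXorf59 and CXorf30 are older names of a single gene, CFAP47. CXorf59 had 25 and 35 reads in control and 0 in both others. It was at least 19.05-fold lower with 0 set to 3 reads over the group and control counts taken as exact. CXorf30, just outside the line, showed the same pattern.

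The remaining members were LOC643988 (FNDC10), with 41 and 41 reads against 1 and 0, CCDC15 with 44 and 40 against 2 and 2, TMEM133, whose symbol is now a synonym of ARHGAP42, with 37 and 42 against 2 and 3, KIAA1257 (CFAP92) with 32 and 33 against 1 and 3, CDRT4 with 34 and 33 against 1 and 3, and RIBC2 with 30 and 25 against 0 and 1. The 4 transcripts without a match were LOC100287820, with 47 and 31 reads against 1 and 2, and the 3 at the upper line named above. Nothing beyond their symbols was used for these.

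None of the 51 members was in any of 13 gene lists that cover cell types and pathways. The largest list held 53 measured genes and only 0.203% of all genes were off, so this absence says little about the members. Across the list of Gα13 pathway genes, 8 of 20 tested genes were lower and 2 higher by limma, whereas 16.6% of all 16945 genes tested were lower and 13.1% higher. Of 52 interferon-stimulated genes 24 were lower and 7 higher, and of 23 SRF and MRTF targets 2 were lower and 7 higher. The interferon-stimulated genes CMPK2 (12 and 14 reads in control), RSAD2 (6 and 6) and HERC5 (2 and 5) had 0 reads in both GNA13-deficient libraries. They passed the filter on low values through control alone, so only a lower call was open to them. Imprinted genes and germline genes kept silent by DNA methylation gave 2 higher and 1 lower call each, among 14 and 13 tested. Germinal center and plasma cell lists each held 2 lower and no higher calls, among 6 and 5 tested, and the B cell list 2 lower and 1 higher among 8. Among stromal, endothelial and epithelial markers 1 was higher and 1 lower of 3 tested, and no natural killer, erythroid or megakaryocyte marker was called of the 2 and 1 tested.

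Since CD33 is a myeloid gene, markers of other blood cells were read beside it. Myeloid markers held 259 and 285 reads in control and 69 and 54 in GNA13-deficient libraries, and 2 of 5 tested were lower. These were ITGAM, with 125 and 145 reads against 3 and 4, and LYZ, with 83 and 83 against 11 and 17. The neutrophil and monocyte genes S100A8, S100A9 and FCGR3A were at 0 in control and CD14 had 1 and 2 reads. CSF1R had 15 and 16 against 13 and 4, and CD68 had 35 and 39 against 42 and 29. T cell markers held 125 and 184 reads against 15 and 5, with 2 of 3 tested lower. Most of these were from CD4, with 115 and 175 against 12 and 5, and the T cell receptor genes CD3D, CD3E and CD3G, with CD2 and CD7, were at 0 in control. CD8A had 5 and 5 against 0 and 0, and it passed the filter on low values through the control libraries alone. The part of other cell types in the off class was not tested.

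The off genes did not share a locus. The 47 members with a position lay on 18 chromosomes and no pair was within 50 kb, the closest being LRG1 and LRRC8E, 3413 kb apart on chromosome 19. Chromosome 19 held the most, 7, or 0.810% of its genes at or above 4.5 in control, and chromosome 1 held 6, or 0.525%. Chromosomes 8 and X held 4 each, which made higher shares of 1.08% and 1.04%, against 0.431% over all such genes. The nearest gene on each side of a member was then read in the limma fit. Only genes that passed the filter on low values could be a neighbour, so that unexpressed genes in between were passed over, as AFP was between AFM and ALB. Of 94 neighbours tested, 33 were called, or 35.1%, against 29.7% of all genes tested. By direction, 19 were lower (20.2%, against 16.6%) and 14 higher (14.9%, against 13.1%). This balance depended on the scaling, with 18 lower and 18 higher after median centring and 17 lower and 19 higher after quantile normalization. The balance over all 16945 genes moved with it. It went from 2819 lower and 2218 higher to 2310 lower and 3117 higher after median centring. After quantile normalization it was 2542 lower and 2705 higher. The median difference of the neighbours was -0.12, against -0.02 for all genes tested. At least 1 lower neighbour flanked 18 of the 47 members, and both flanking genes were lower beside NCALD only. Without the filter on low values 15 neighbours were called, beside 1999 of all 25066 genes, and without the variance trend 20, beside 2718 of 16945. With any single library left out, limma called none of the 94 and none of the 16945, with 31 to 36 and 5257 to 5600 at an unadjusted p under 0.05.

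**Figure D3:**
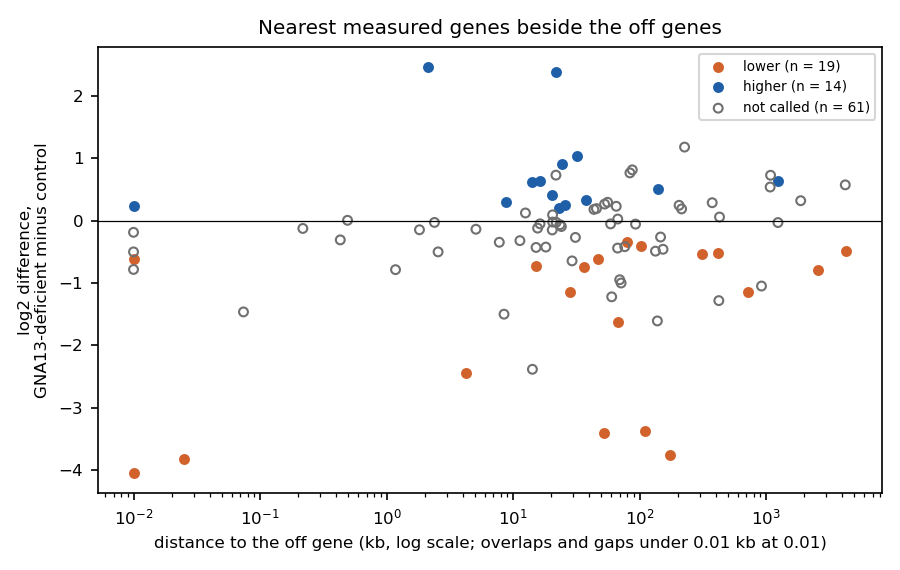
Log2 difference, GNA13-deficient minus control (y axis), of the 94 nearest measured genes beside the off genes, against their distance in kb (x axis, log scale). Filled orange marks are genes called lower (19), filled blue marks genes called higher (14) and open marks genes not called (61). The 5 lowest neighbours differ by 3.38 or more and lie from overlap to 175 kb away.

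A few neighbours had falls close to those of the members. CCDC48 overlaps KIAA1257 on the opposite strand of chromosome 3 and had 52 and 70 reads in control and 4 and 3 in GNA13-deficient libraries, and it fell by 4.05 (standard error 0.36, limma adjusted p = 0.00280). ZNF568 starts 25 bases from ZNF829 in the opposite direction and had 42 and 32 reads against 1 and 6, and fell by 3.83 (standard error 0.93, limma adjusted p = 0.0363). SIPA1L2, which encodes a Rap GTPase-activating protein, lies 175 kb from KIAA1383 and had 746 and 774 reads against 54 and 53, and fell by 3.76 (standard error 0.11, limma adjusted p = 0.000661). Such falls were not limited to touching genes. OCRL, which encodes an inositol 5-phosphatase, lies 52.7 kb from APLN and had 237 and 219 reads against 23 and 18, and fell by 3.41 (standard error 0.22, limma adjusted p = 0.00160). RASAL2, 110 kb from SEC16B, fell by 3.38 (standard error 0.65, limma adjusted p = 0.0192) but had 6 and 20 reads in control. Others fell less, such as RASSF6 beside AFM, which fell by 1.62, ITM2C beside GPR55, which fell by 1.15, and REXO2 beside CADM1, which fell by 1.15.

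Some neighbours were higher. PBK, a mitotic kinase gene beside SCARA5, rose by 1.04 (standard error 0.07, limma adjusted p = 0.00177), and E2F1, the cell cycle transcription factor gene beside PXMP4, rose by 0.64 (standard error 0.05, limma adjusted p = 0.00210). SLC37A2, a sugar phosphate transporter gene beside CCDC15, was listed at 0 in control and had 5 and 5 reads in the others and passed the filter through these. Family relatives of the members, listed after the members were known, gave 14 lower and 8 higher calls among 68 tested, or 20.6% and 11.8%, near the shares over all genes. Of the neighbours and relatives named here with a call, ZNF568 lost it without the filter, without the variance trend and under quantile normalization, and NEDD9 lost it under those settings and under median centring. RASAL2 lost its call without the filter, without the variance trend, with a pseudocount of 10 and with voom. LRRC8D lost it without the variance trend and under median centring. FLNA, VIM and CNR1 lost it without the filter or without the trend, and ITM2C, SIGLEC9, CNR2, MYOF, MEIS2, CD4 and LYZ lost it without the filter.

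Start sites of the off genes were compared with those of other genes. For 45 of the 51 members, or 88.2%, the start of the GENCODE canonical transcript on GRCh37 was known, and the 250 bases before and 50 bases after it were read. The ratio of observed to expected CpG dinucleotides had a median of 0.601 in the off class, against 0.858 for genes at or above 4.5 in both control libraries and 0.763 for the other genes in the same range of control values. A ratio of at least 0.6 was found in 23 members, or 51.1%, against 86.0% and 68.2%. A ratio under 0.4 was found in 17 members, or 37.8%, against 8.25% and 21.2%. The class thus held both kinds of promoter. The comparison genes reach up to the level of CD33, whereas 46 of the 51 members had a control mean below 6, and the difference in shares was not tested. With start sites from RefSeq, 37 members, or 72.5%, had a value, and 37.8% of these had a ratio of at least 0.6, against 84.1% of genes at or above 4.5 in control. So many members lack a value there that it is not read as a check.

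**Figure D4:**
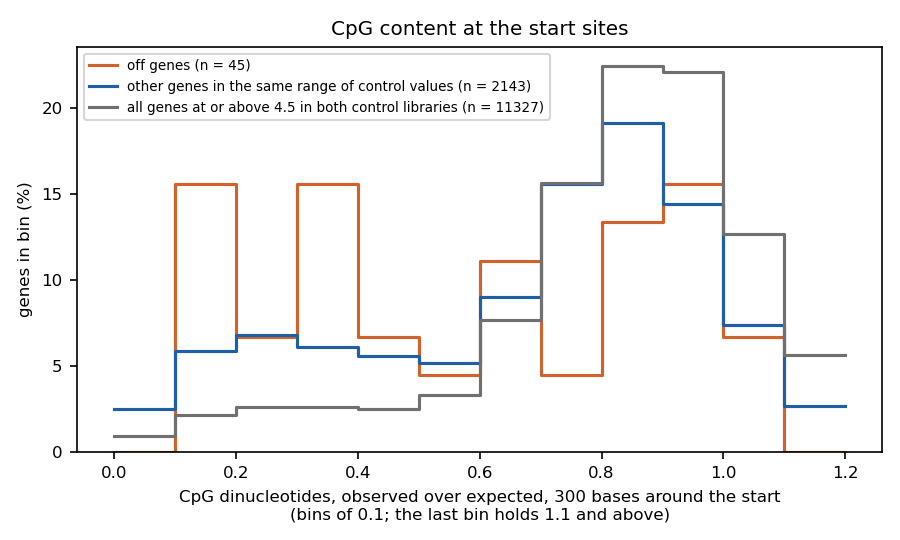
Share of genes (y axis, %) by the observed over expected ratio of CpG dinucleotides in 300 bases around the start (x axis), for 45 off genes (orange), 2143 other genes in the same range of control values (blue) and 11327 genes at or above 4.5 in both control libraries (grey). Off genes form a group under 0.4 (17 of 45) and another above 0.8, where most of the grey curve lies.

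The bases before the start are shown for the highest member and the next, since their CpG ratios lie far apart. CD33 had 3 CpG dinucleotides in its window and a ratio of 0.117, and FBLIM1 had 39 and a ratio of 0.885. The CD33 stretch is chr19:51728086-51728335 and the FBLIM1 stretch chr1:16085040-16085289, both on the plus strand of GRCh37 and both ending at the base before the canonical start. The last bases of each lie in the first exon of other transcripts of the gene. Capitals mark the letters GGGCGG, the core of a GC box, and in FBLIM1 also a CArG box, the motif bound by the serum response factor.
CD33: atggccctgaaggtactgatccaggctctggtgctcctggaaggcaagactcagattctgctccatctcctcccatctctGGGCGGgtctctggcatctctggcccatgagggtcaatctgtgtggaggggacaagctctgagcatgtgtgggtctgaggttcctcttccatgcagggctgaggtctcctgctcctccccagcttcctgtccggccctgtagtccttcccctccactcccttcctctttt
FBLIM1: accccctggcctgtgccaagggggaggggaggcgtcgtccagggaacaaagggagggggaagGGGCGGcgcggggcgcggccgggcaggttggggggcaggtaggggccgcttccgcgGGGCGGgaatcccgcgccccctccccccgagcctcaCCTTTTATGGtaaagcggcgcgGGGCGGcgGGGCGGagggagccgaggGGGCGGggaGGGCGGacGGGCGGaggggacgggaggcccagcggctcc
A CArG box was found in 1 of the 45 members, or 2.22%, and in 1.22% of all 20628 genes read in this way. The letters GGGCGG were in 25 members, or 55.6%, and in 59.5% of all genes.

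A TATA box, here the letters TATAAA on either strand, was found in 7 members, or 15.6%, against 10.0% of all genes and 5.09% of genes at or above 4.5 in control. In AFM, PRPH and ZG16B it lies shortly before the start, the usual place of such boxes. It is shown for AFM and PRPH, since in ZG16B these bases overlap an exon of another transcript. The last 60 bases before the start are chr4:74347402-74347461 for AFM and chr12:49688870-49688929 for PRPH, on the plus strand of GRCh37, with the box in capitals.
AFM: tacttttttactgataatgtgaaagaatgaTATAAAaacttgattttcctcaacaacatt
PRPH: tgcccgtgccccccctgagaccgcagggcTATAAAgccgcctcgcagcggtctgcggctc
Their CpG ratios were 0.175 and 0.386. Other letters searched on both strands were CCAAT, in 37.8% of members and 35.6% of all genes, CACGTG in 2.22% and 8.51%, TGACGTCA in 2.22% and 2.56%, TGANTCA in 11.1% and 5.53%, GAGGAAGT in 6.67% and 2.497%, and CCGGAAGT in 4.44% and 5.86%. TGTTTAC was in none of the 45 and in 2.47% of all genes, and the core of the interferon-stimulated response element, given by name, was in none of the 45 and in 3.38% of all genes. None of these letters was in most members, apart from GGGCGG, and a match is a description of the letters and not of a bound factor.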

How the data were processed

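RNA of 4 NUDUL1 samples was sequenced after a stranded poly(A) library kit. The authors used STAR and the hg19 genome for alignment, and their processing notes name HTSeq, with no version and no annotation given in the sources used here. They deposited normalised reads on a log2 scale, with a row of total mapped reads that is not a gene and was used only for depth. The values were used as deposited. On a linear scale they were whole reads times a constant for each library within rounding, in 100% of values up to 400 reads, and these reads were used for ratios and intervals.

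The rule used levels of 4.5 and 1.7. Differences between genotypes were fitted by limma 3.58.1 in R 4.3.3 (eBayes with a variance trend) on the 16945 genes above 0 in at least 2 libraries, with genotype as the only term. Adjusted p values are by the Benjamini-Hochberg method over these genes, with a threshold of 0.05. The fit was also run on simulated data with large changes in well-covered genes, which does not bear on genes with few reads. Tables were joined with pandas 2.3.3 in Python 3.11.15, and intervals were exact (Clopper-Pearson, 95%). Of 25066 genes, 22156 matched a RefSeq gene and 21141 a GRCh37 position. Start sites and sequences came from GENCODE v44lift37 and GRCh37.

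The members and the gene lists were chosen with earlier results of these data known. Named with values were the 15 highest members, those sharing a family, those within 50 kb of another, and the 3 genes on each side of each line. Of the 33 neighbours with an adjusted p under 0.05 only a part was named, mostly those with the larger falls. The other members, the relatives, the motifs, the CpG limits and other named genes were chosen after values were seen. Alternatives were other levels, filters, pseudocounts of 1 and 10, scalings, no variance trend, the replicate block, voom, leaving out libraries, and RefSeq start sites, the last added later. A few genes that these choices include are not reported here.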

Additional observations from a re-analysis of the deposited data

How the results depend on the processing

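The count of off genes was 79 with a high level of 4.0, 27 with 5.0, 17 with a low level of 1.0, 33 after median centring and 22 after quantile normalization. It ranged from 64 to 109 with libraries left out, where fewer values have to pass. A low level of 2.0 gave 51. The count of on genes was 0 throughout except for 0 to 5 with libraries left out. For members, 263 recomputed differences moved by less than the spread between replicates and 43 by as much or more, with 0 reversed. Leaving out 1 library can shift a difference by no more than this spread, by the way it is computed. Those fits therefore could not show a larger move, and only the 2 scalings could. The rule that chose the members sets their direction whichever library is left out, so direction was not tested in those fits.

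Limma called 5037 genes, 1999 without the filter and 2718 without the variance trend, and 33, 15 and 20 neighbours. The causes were not tested. Leaving out 1 library gave 0 calls in both, in each of the 4 fits, with 1 residual degree of freedom and the lone library assumed to vary like the other genotype. At an unadjusted p under 0.05 these fits had 5257 to 5600 genes. Of the calls, 44.03% were higher, and 57.4% after median centring, which moved the median of all genes from -0.02 to 0.08. For other genes named with a call and the promoter share, 315 values kept their direction and side of the threshold and 200 lost the call, most of them with a library left out.

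The genotypes share replicate numbers, but nothing in the labels or methods ties equal numbers together. Deviations of libraries with equal numbers correlated at 0.453 over 8473 genes. A replicate block gave 6616 called genes and 44 called neighbours. With 2 libraries per genotype and low members at 0 to 3 reads, depth limits how near to silent a gene can be shown to be.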

Other observations

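Over looser levels, too, more genes were off than on. With a high level of 4.0 and a low level of 2.5, 143 genes were off and 5 on, and with both levels at 3.0, 416 were off and 103 on. Within a shortfall of 1 on the log2 scale from the rule, 204 genes lay on the off side and 8 on the on side. Among the widest gaps toward the libraries labelled GNA13-deficient were genes listed at 0 in control, namely SNORD91A, with 11 and 8 reads, AP3B2, with 12 and 7, and ECHDC3, with 7 and 7.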
